A study of Mus musculus with 4 samples.

Results

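Haematopoietic stem cells (HSCs) of mouse bone marrow that carried transcript of Vwf, the gene of von Willebrand factor, were compared with HSCs of the same libraries that had none. The cells were chosen by their Vwf count: a cell with at least 3 was called Vwf-positive, which held for 81 of the 277 cells that passed the filters, out of 297 cells in the count table. The 169 cells with a Vwf count of 0 served as the comparison, and 27 cells with 1 or 2 counts were left out of both sides. All cells came from wild-type mice, 8 weeks old, with no treatment named in the labels. Kit-expressing marrow cells were enriched on magnetic beads, and single cells were then sorted as EPCR+ (CD201+), CD150+, CD48-, Kit+ and Sca-1+ without lineage markers, a phenotype called ESLAM SK. The study sorted CD27- and CD27+ cells of this phenotype. Each of the 4 libraries is labelled with both CD27 gates, and no gate is given for a cell, so the make-up of the Vwf-positive cells by gate is not known. Nothing in the labels ties the libraries to separate mice. The p-values weigh the difference between the sides against its spread over these 4 libraries, which may be technical spread.

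Von Willebrand factor is a large glycoprotein of blood plasma that tethers platelets to damaged vessel walls, and it is made by megakaryocytes and endothelial cells. In mouse bone marrow, HSCs that express Vwf have been described as primed toward platelet production, dependent on thrombopoietin and able to give rise to HSCs without Vwf. Clu, which encodes the secreted chaperone clusterin of platelet granules, and Cavin2, which encodes a coat protein of caveolae found in platelets, are used as further markers of such cells.

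Summed over the cells of a library, the Vwf-positive side held 3216709, 2605300, 1077151 and 3925743 counts in libraries 1 to 4, and the comparison side 3802483, 3797655, 3615270 and 5756330. A single cell held between 14613 and 346876 counts. The median count per cell was 94988, 139939, 64611.5 and 212491 on the Vwf-positive side and 88571, 99569, 65335.5 and 147655.5 on the comparison side. Vwf-positive cells were thus sequenced more deeply in 3 of 4 libraries, and a deeper cell reaches 3 counts more easily. Shares of cells with a transcript are therefore given after random thinning of every cell to 30000 counts, which left out 1 Vwf-positive and 12 comparison cells. Runs of neighbouring cells that stood apart from the rest, 15 cells of libraries 2 and 4, were dropped beforehand. Cell numbers recur between libraries, with 90 of 91 used in at least 2, but no 2 cells held identical counts. At most 4.58% of a kept cell's counts were mitochondrially encoded.

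The Vwf count chose the cells, so its values are a description and carry no test. The gene spans chr6:125546774-125686679 on the plus strand (GRCm38, GENCODE M21). Of the kept cells, 29 of 74 in library 1, 19 of 67 in library 2, 12 of 71 in library 3 and 21 of 65 in library 4 were Vwf-positive. These shares are 39.2% (95% exact binomial interval 28 to 51.2), 28.4% (18 to 40.7), 16.9% (9.05 to 27.7) and 32.3% (21.2 to 45.1), with a mean of 29.2% ± 9.3 (SD, n = 4). Library 3 had the lowest share and the shallowest cells. The intervals cover only the sampling of cells, and not depth or differences between libraries. Counts may also include PCR copies. A Vwf-positive cell held a median of 25 Vwf counts and at most 103. Few cells lay near the threshold: 22 cells had 1 count and 5 had 2, while 2 cells each had 3, 4 and 5, and 65 of the 81 had at least 10. As CPM, that is the count scaled to a library sum of 1000000, Vwf stood at 260, 235, 184 and 188 in the Vwf-positive cells of libraries 1 to 4, a mean of 217 ± 37 (SD, n = 4).

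**Figure D1:**
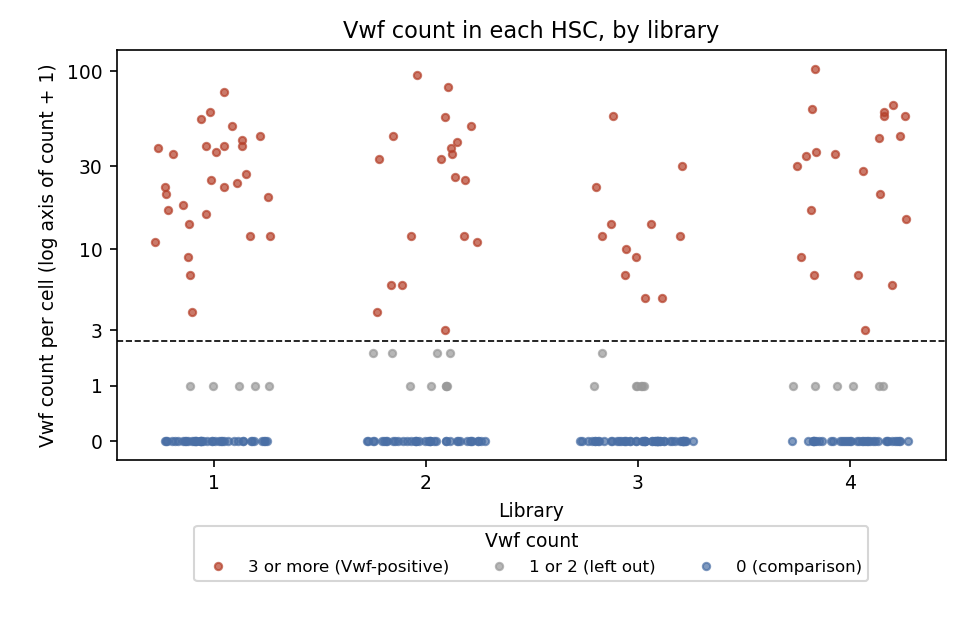
Vwf count of each cell (points; log axis of count + 1) in libraries 1 to 4, coloured as Vwf-positive (3 or more), left out (1 or 2) and comparison (0), with the threshold as a dashed line. The 81 Vwf-positive cells spread up to 103 counts, and library 3 has the fewest of them, 12.

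The markers were found more often in Vwf-positive cells, but neither passed the test over all genes. Clu (chr14:65968483-65981547, plus strand) stood at 140, 189, 138 and 85.3 CPM in the Vwf-positive cells of libraries 1 to 4, against 64.2, 6.32, 38.2 and 1.39 CPM in the comparison cells. The ranges did not overlap, and the log2 fold change (Vwf-positive over Vwf count 0) was 3.29 ± 0.67 (SE; edgeR quasi-likelihood test, Benjamini-Hochberg adjusted p = 0.101). Cavin2 (chr1:51289126-51302960, plus strand) stood at 71.5, 101, 84.5 and 124 CPM in Vwf-positive cells, against 76.5, 12.1, 67.2 and 35.3 CPM in comparison cells. It was higher in libraries 2, 3 and 4 and lower in library 1, so the ranges overlapped, and its log2 fold change was 1.25 ± 0.50 (edgeR adjusted p = 1.0). At equal depth, Clu had a count in 38.8% of Vwf-positive and 12.1% of comparison cells, and Cavin2 in 45% of Vwf-positive and 19.7% of comparison cells. With every cell weighing the same (limma on the mean log2 of thinned counts plus 1), Clu did pass (limma adjusted p = 0.0127) and Cavin2 did not (limma adjusted p = 0.227). Clu also passed without library 1 (4.18, edgeR adjusted p = 0.0207). It did not pass without library 2 (2.64), library 3 (3.96, edgeR adjusted p = 0.37) or library 4 (edgeR adjusted p = 0.448). With the sides set by Vwf counts after thinning, Clu did not pass either (2.01, edgeR adjusted p = 0.404).

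The markers also marked only some of the Vwf-positive cells. With at least 3 counts as deposited asked for, 20 of 81 Vwf-positive cells held both Clu and Cavin2, 27 held 1 of them and 34 held neither. In the comparison cells 7 of 169 held both, 30 held 1 of them and 132 held neither. The share with at least 1 of the 2 markers was 58.6%, 57.9%, 58.3% and 57.1% in the Vwf-positive cells of libraries 1 to 4, and 27.5%, 7.69%, 28.8% and 21.1% in the comparison cells. At equal depth the shares over all libraries were 52.5% of Vwf-positive and 20.4% of comparison cells. The cells are called Vwf-positive here, after the transcript that chose them. Clu and Cavin2 did not pass the test over all genes, and the platelet gene lists below held no called gene. On simulated data the test recovered 34% of genes at a log2 change of 2 and 58% at 3. The lack of calls therefore cannot decide whether the cells were platelet-biased, which was not tested.

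Of 11155 genes tested besides Vwf, 3 were higher in Vwf-positive cells at an adjusted p below 0.05, 0.0269% of those tested. Another 3 genes were lower in Vwf-positive cells, again 0.0269%, which makes 6 in either direction (0.0538%). The higher genes were Ramp2, Hba-a1 and Rsad2, and the lower genes were Cmtm7, Rgs1 and Cd27. At an unadjusted p below 0.05, 222 genes were higher (1.99%) and 278 lower (2.49%), 500 in all (4.48%). In libraries taken singly, 562 genes were higher in Vwf-positive cells in 4 of 4 (5.04%) and 907 were lower in 4 of 4 (8.13%). The ranges of the sides did not overlap for 146 higher genes (1.31%) and 278 lower genes (2.49%), 424 in all (3.80%). The median log2 fold change of all genes tested was -0.13, with 4663 positive and 6492 negative, and the values below are read against it.

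Ramp2 encodes a membrane protein that pairs with the calcitonin receptor-like receptor to form a receptor for adrenomedullin, and lies at chr11:101246028-101259546 on the plus strand. It stood at 168, 338, 130 and 142 CPM in the Vwf-positive cells of libraries 1 to 4, against 16.8, 1.32, 7.47 and 47.1 CPM in the comparison cells. Every Vwf-positive value lay above every comparison value. The log2 fold change was 3.90 ± 0.68 (SE; edgeR adjusted p = 0.0345). At equal depth 33.8% of Vwf-positive and 5.73% of comparison cells had a Ramp2 count, so the transcript was found in a minority of either side. Ramp1, which encodes a related partner of the same receptor, went the other way without passing the test: its values were 190, 199, 137 and 136 CPM in Vwf-positive cells, against 262, 398, 417 and 338 CPM in comparison cells (log2 fold change -1.08 ± 0.23, edgeR adjusted p = 0.130). Ramp1 was chosen after its values were seen.

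Cd27, which encodes the surface receptor that the study sorted on, a relative of the tumour necrosis factor receptors, was lower in Vwf-positive cells. It stood at 97.9, 115, 43.6 and 28.5 CPM in the Vwf-positive cells of libraries 1 to 4, against 233, 282, 275 and 191 CPM in the comparison cells. The means were 71.2 ± 41.6 CPM in Vwf-positive and 245 ± 42.2 CPM in comparison cells (SD, n = 4), with no overlap. The log2 fold change was -1.96 ± 0.32 (edgeR adjusted p = 0.0241). A Cd27 count was found in 33.8% of Vwf-positive and 62.4% of comparison cells at equal depth. Whether the Vwf-positive cells came more often from the CD27- gate cannot be told from these labels. Of the 18 Vwf-positive cells with at least 3 Cd27 counts at equal depth, 6 also held Clu or Cavin2 at that level, as did 36 of the 62 other Vwf-positive cells. In counts as deposited, 13 of 24 such cells and 34 of 57 others did.

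Cmtm7 encodes a membrane protein of the MARVEL family that takes part in B-1a cell development in mice, and lies at chr9:114756836-114781856 on the minus strand. It stood at 482, 360, 350 and 502 CPM in Vwf-positive cells, against 999, 915, 822 and 869 CPM in comparison cells, with no overlap (log2 fold change -1.09 ± 0.15, edgeR adjusted p = 0.00732). Most cells of either side carried it, 76.2% of Vwf-positive and 88.5% of comparison cells at equal depth. Rgs1 encodes a protein that shortens signalling of chemokine and other G protein-coupled receptors in leukocytes, and lies at chr1:144242296-144249242 on the minus strand. It stood at 131, 203, 106 and 149 CPM in Vwf-positive cells, against 422, 515, 408 and 298 CPM in comparison cells, again with no overlap (log2 fold change -1.48 ± 0.22, edgeR adjusted p = 0.00833). It was found in 30% of Vwf-positive and 48.4% of comparison cells.

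Hba-a1, which encodes an alpha-globin chain, and Rsad2, which encodes the interferon-inducible antiviral protein viperin, were higher, with a large share of the counts from 1 or 2 cells. Hba-a1 (chr11:32283511-32284465, plus strand) stood at 81.1, 38.4, 740 and 213 CPM in Vwf-positive cells, against 27.6, 11.3, 46.5 and 68.6 CPM in comparison cells (log2 fold change 2.22 ± 0.37, edgeR adjusted p = 0.0288). A single Vwf-positive cell held 40.1% of the Hba-a1 counts of its side. That cell had 799 counts and another had 769, and both are described with the erythroid genes below. Without these 2 cells the log2 fold change was 0.20 ± 0.78, and the gene was not called. Reads of Hba-a1 can be shared with its near-identical copy Hba-a2. Rsad2 (chr12:26442746-26456452, minus strand) stood at 34.8, 200, 223 and 77.2 CPM in Vwf-positive cells, against 9.73, 58.2, 53.7 and 14.9 CPM in comparison cells (log2 fold change 2.02 ± 0.35, edgeR adjusted p = 0.0350), and a single cell held 34.2% of the counts. The ranges of both genes overlapped, although each was higher in 4 of 4 libraries. With the 7 Vwf-positive and 7 comparison cells that had at least 3 counts of Mki67, Birc5 or Ccnb2 (cycling cells) left out, the log2 fold change was -0.04 for Hba-a1 (edgeR adjusted p = 1.0) and 1.80 for Rsad2 (edgeR adjusted p = 0.343). Ramp2, Cmtm7, Rgs1 and Cd27 still passed.

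Leaving out library 2 or library 3 ended the calls. Without library 2 none of the 6 genes passed edgeR's test, with adjusted p of 0.205 for Ramp2, Cd27, Cmtm7 and Rgs1, 0.237 for Hba-a1 and 0.398 for Rsad2. Without library 3 their adjusted p ran from 0.0777 for Cmtm7 to 0.614 for Hba-a1. Without library 4 Cd27 (0.171), Hba-a1 (0.0807) and Rsad2 (0.173) did not pass either. All 6 kept their direction in each case, and the log2 fold changes of Ramp2 ran from 2.99 without library 2 to 4.80 without library 4. With the sides set by Vwf counts after thinning (61 Vwf-positive and 179 comparison cells), Ramp2 (3.08 ± 0.46, edgeR adjusted p = 0.00018) and Cmtm7 (-1.17 ± 0.18, edgeR adjusted p = 0.000255) passed. Cd27 (-1.24, edgeR adjusted p = 0.324), Rgs1 (-0.87, 0.362), Rsad2 (0.97, 1.0) and Hba-a1 (0.00, 1.0) did not.

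**Figure D2:**
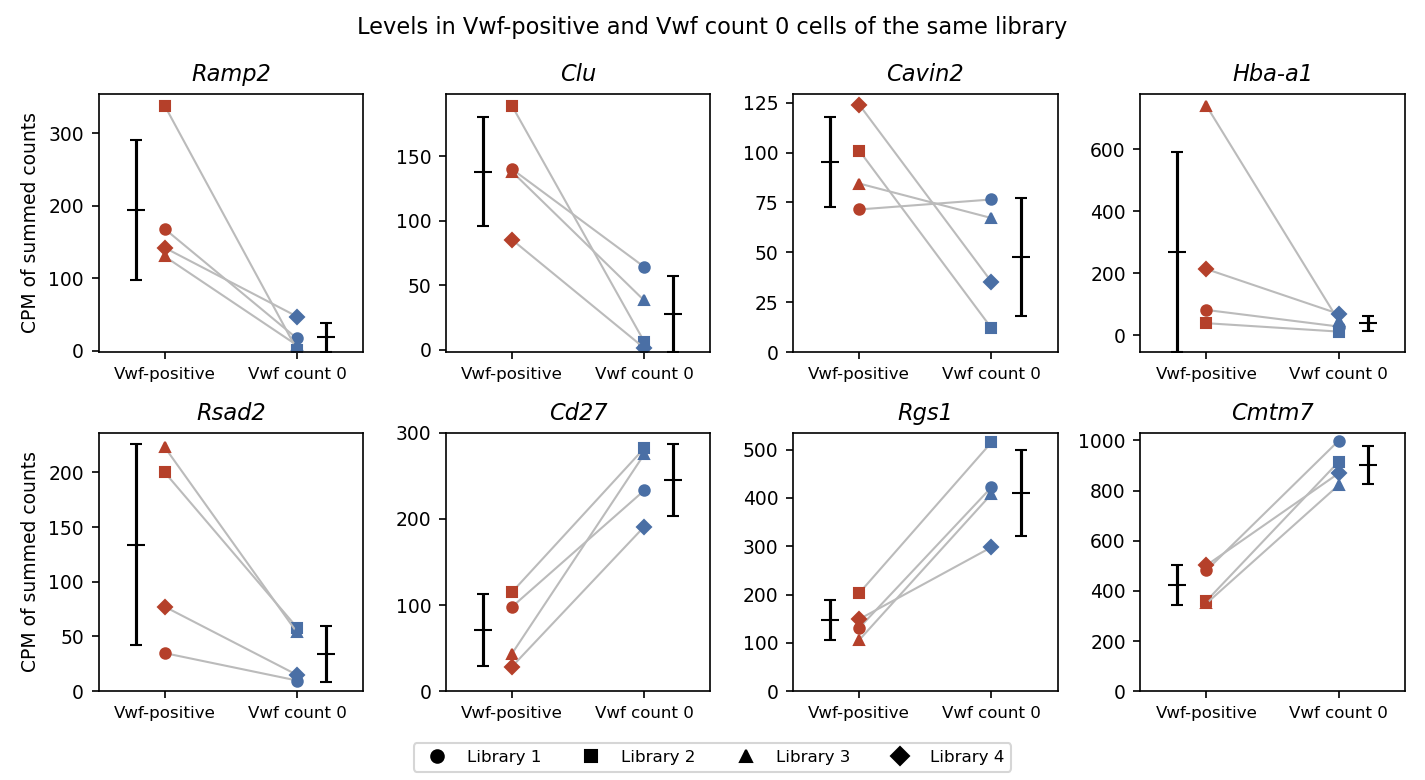
Levels (CPM of summed counts) of 8 genes in the Vwf-positive and the Vwf count 0 cells of each library, joined by lines, with the mean and SD beside them. Ramp2 and Clu are higher and Cd27, Rgs1 and Cmtm7 lower in the Vwf-positive cells of every library without overlap, whereas the Hba-a1 mean is drawn up by the 740 CPM of library 3.

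The stretch of 250 bases before RefSeq's gene start is printed for the called genes and markers that RefSeq's GRCm38.p6 table gave, 5 of 9, to show the sequence next to the genes whose transcript level differed or that mark the cells. Capitals mark a match to a GATA motif (AGATAA or TGATAA), an ETS motif (AGGAAG or CGGAAG) or a RUNX motif (TGTGGT) on either strand. The windows are chr1:51288876-51289125 on the plus strand for Cavin2, chr6:125237028-125237277 on the minus strand for Cd27, chr9:114781994-114782243 on the minus strand for Cmtm7, chr11:32283422-32283671 on the plus strand for Hba-a1 and chr12:26456453-26456702 on the minus strand for Rsad2. RefSeq's starts differ from the GENCODE spans given above for Cd27, Cmtm7 and Hba-a1, and 161 bases of the Hba-a1 window lie inside the GENCODE span of that gene. The remaining genes were Vwf, Clu, Ramp2 and Rgs1.
Cavin2: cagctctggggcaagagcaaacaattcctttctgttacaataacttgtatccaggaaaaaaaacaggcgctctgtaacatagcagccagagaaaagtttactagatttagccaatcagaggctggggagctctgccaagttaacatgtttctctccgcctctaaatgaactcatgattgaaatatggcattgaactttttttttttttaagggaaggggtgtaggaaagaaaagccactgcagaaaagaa
Cd27: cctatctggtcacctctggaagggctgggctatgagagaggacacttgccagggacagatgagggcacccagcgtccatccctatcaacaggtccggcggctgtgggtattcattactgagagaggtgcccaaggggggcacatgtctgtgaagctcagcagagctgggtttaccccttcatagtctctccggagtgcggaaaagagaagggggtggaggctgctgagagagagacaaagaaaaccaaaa
Cmtm7: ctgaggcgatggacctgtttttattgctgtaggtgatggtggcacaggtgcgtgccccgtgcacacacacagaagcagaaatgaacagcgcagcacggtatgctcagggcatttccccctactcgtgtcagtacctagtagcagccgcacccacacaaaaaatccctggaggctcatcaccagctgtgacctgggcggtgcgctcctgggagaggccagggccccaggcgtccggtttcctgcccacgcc
Hba-a1: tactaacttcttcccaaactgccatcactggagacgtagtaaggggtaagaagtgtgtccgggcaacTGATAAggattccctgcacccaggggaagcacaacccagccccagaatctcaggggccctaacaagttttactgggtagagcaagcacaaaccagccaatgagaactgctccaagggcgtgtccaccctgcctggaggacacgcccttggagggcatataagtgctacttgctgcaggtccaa
Rsad2: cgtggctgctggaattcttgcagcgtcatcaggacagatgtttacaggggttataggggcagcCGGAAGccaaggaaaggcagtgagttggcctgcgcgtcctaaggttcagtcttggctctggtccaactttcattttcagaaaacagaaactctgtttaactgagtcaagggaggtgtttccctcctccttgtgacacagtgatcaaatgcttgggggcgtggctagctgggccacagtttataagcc
Hba-a1 held 1 GATA match and Rsad2 held 1 ETS match. Cavin2, Cd27 and Cmtm7 held none of these letters in the window. Of 32851 promoter windows of the same length, 16.6% held the GATA, 39.2% the ETS and 14% the RUNX letters. A match is a description of the letters and not a bound site.

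The lists of platelet and megakaryocyte genes held no called gene. Counts of called genes in this and the following lists are edgeR's. Of the genes of all lists, DESeq2 also called Clu, Cdkn1a, Mcm6 and Atf3 higher and Cd52 lower, and limma-voom called Apoe, Sult1a1, Blvrb and Car1 higher. Of the surface receptors and adhesion molecules of platelets, 18 were tested, 0 were called, and 12 had a positive log2 fold change, with a median of 0.33 against -0.13 over all genes. After thinning, 13 of 14 tested were positive, with a median of 0.44. The median ran from 0.22 without library 2, with 10 of 18 positive, to 0.46 without library 1, with 10 of 16 positive. With all libraries, 3 of the 18 were higher and 0 lower at an unadjusted p below 0.05, where 1.99% of all genes were higher. Without library 2, 0 were higher at that level. The 3 genes are named next. They were Selp (P-selectin, 3.59 ± 1.36), Slamf1 (1.14 ± 0.47) and Itga6 (integrin alpha 6, 0.88 ± 0.39), each with an edgeR adjusted p of 1.0. Itga2b, the platelet integrin CD41, gave 0.61 ± 0.86. Cd9, a tetraspanin of platelets and HSCs, stood at 429, 406, 350 and 287 CPM in Vwf-positive cells, against 339, 357, 350 and 421 CPM in comparison cells, and the ranges overlapped.

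Platelet granule and secreted proteins had a median log2 fold change of -0.07 over 14 tested genes, with 0 called. Besides Clu, Pf4 had an unadjusted p below 0.05, in the opposite direction. Pf4, a chemokine of platelet granules, stood at 20.5, 79.1, 48.3 and 16.3 CPM in Vwf-positive cells, against 53.9, 94.3, 92.1 and 142 CPM in comparison cells. The ranges overlapped (log2 fold change -1.38 ± 0.48, edgeR adjusted p = 1.0). Ppbp, another platelet chemokine, had a count in 3 of 81 Vwf-positive and 7 of 169 comparison cells, and Gp1bb, a subunit of the receptor that binds von Willebrand factor, in 2 of 81 Vwf-positive and 3 of 169 comparison cells. Both were rare on either side. Mmrn1 (multimerin, -0.12 ± 0.21) and Angpt1 (angiopoietin, -0.02 ± 0.19) were close to 0.

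Megakaryocyte signalling and cytoskeleton genes had a median of -0.01 over 19 tested genes, with 0 called and Cavin2 the sole one at an unadjusted p below 0.05. Gng11, a G protein subunit of platelets, stood at 764, 551, 500 and 751 CPM in Vwf-positive cells, against 565, 635, 695 and 601 CPM in comparison cells (0.03 ± 0.17). Megakaryocyte transcription factors had a median of -0.08 over 14 tested genes, 7 positive and 7 negative, with 0 called. The one at an unadjusted p below 0.05 was Nfe2, which is needed for platelet release. Nfe2 stood at 172, 197, 154 and 240 CPM in Vwf-positive cells, against 308, 290, 259 and 265 CPM in comparison cells, with no overlap (-0.56 ± 0.22, edgeR adjusted p = 1.0). Fli1 (-0.27 ± 0.27), Gata2 (-0.36 ± 0.25) and Runx1 (0.15 ± 0.26) lay within 2 standard errors of 0.

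Transcripts of the sorting antigens did not pass the test, apart from Cd27. Slamf1, which encodes CD150, stood at 88.3, 159, 41.8 and 72.9 CPM in Vwf-positive cells, against 88.4, 36.1, 36.0 and 16.7 CPM in comparison cells. Libraries 2, 3 and 4 were higher and library 1 was level, so the ranges overlapped (1.14 ± 0.47, edgeR adjusted p = 1.0), and 36.2% of Vwf-positive and 15.3% of comparison cells had a count at equal depth. Kit (-0.41 ± 0.23), Ly6a, the gene of Sca-1 (-0.32 ± 0.18), and Procr, the gene of EPCR (-0.44 ± 0.22), were not called. Cd48 had a count in 0 of 81 Vwf-positive cells, which allows up to 3.7% of cells with a count but does not limit the cells that express the gene, and in 2 of 169 comparison cells.

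HSC identity genes were present on either side, and Ramp2 was the called member. Of 27 tested, 13 had a positive log2 fold change, with a median of -0.01. At an unadjusted p below 0.05, 2 were higher and 1 lower, against 1.99% and 2.49% of all genes. With the cycling cells left out, 18 of 27 were positive, with 5 higher and 0 lower at that level. Hlf, a transcription factor of HSCs, stood at 303, 372, 357 and 254 CPM in Vwf-positive cells, against 379, 463, 460 and 445 CPM in comparison cells, with no overlap (-0.44 ± 0.18, edgeR adjusted p = 1.0). Mecom (-0.13 ± 0.22), Meis1 (-0.25 ± 0.18) and Mllt3 (0.12 ± 0.18), which encode factors that maintain HSCs, were not called. The level of the list summed to between 8680 and 12800 CPM in Vwf-positive cells and between 9900 and 10700 CPM in comparison cells.

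Of 20 tested quiescence and dormancy genes, 0 were called, 12 were positive and the median was 0.16. At an unadjusted p below 0.05, 4 were higher and 1 lower, where 1.99% of all genes were higher and 2.49% lower. Cdkn1a, which encodes the cell cycle inhibitor p21, stood at 65.9, 76.4, 134 and 86.6 CPM in Vwf-positive cells, against 18.4, 8.16, 5.26 and 0.174 CPM in comparison cells. The ranges did not overlap (log2 fold change 4.11 ± 0.82, edgeR adjusted p = 0.101), and with every cell weighing the same the gene passed (limma adjusted p = 0.0186). Apoe, which encodes apolipoprotein E, stood at 1950, 2450, 1460 and 2120 CPM in Vwf-positive cells, against 1190, 1160, 1660 and 1620 CPM in comparison cells. It was lower in library 3 alone (0.51 ± 0.16, edgeR adjusted p = 0.799), and passed with equal weight for each cell (limma adjusted p = 0.00338). Sult1a1, a sulfotransferase, gave 0.69 ± 0.21, and Cyp26b1, which breaks down retinoic acid, gave 1.91 ± 0.61. Zfp36l2, an RNA-binding protein, gave -0.68 ± 0.28.

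Most tested lymphoid and multipotent progenitor genes had a negative log2 fold change, and Cd27 was the sole called member. Of 15 tested, 13 were negative and the median was -0.93, against 6492 negative of 11155 and a median of -0.13 over all genes. At an unadjusted p below 0.05, 6 were lower and 0 higher: Cd27, Cd34, Emb, Cd52, Runx2 and Sox4. Of all genes, 2.49% were lower and 1.99% higher at that level. The list summed to 960, 1000, 769 and 802 CPM in Vwf-positive cells, against 1160, 1620, 1420 and 1160 CPM in comparison cells, without overlap. Cd34, a surface marker of multipotent progenitors, stood at 112, 87.5, 52.0 and 43.0 CPM in Vwf-positive cells, against 115, 130, 148 and 135 CPM in comparison cells. It was lower in 4 of 4 libraries, by little in library 1 (-0.93 ± 0.35, edgeR adjusted p = 1.0). Sox4, a transcription factor of early B cells, stood at 4.04, 3.84, 0.928 and 14.3 CPM in Vwf-positive cells, against 43.9, 56.1, 17.7 and 30.1 CPM in comparison cells (-3.07 ± 1.01, edgeR adjusted p = 0.923). Runx2 gave -2.45 ± 0.96 and Cd52, a small surface glycoprotein of lymphocytes, -6.37 ± 1.99. The highest members besides these, H2-DMa and Bcl11a, gave -0.16 ± 0.27 and -0.06 ± 0.24. The median of the list ran from -1.12 to -0.75 when a library was left out and was -0.63 without the cycling cells.

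Several genes just outside the threshold had no overlap between sides, as did 3.80% of all genes tested. Of these, Anxa1, Smtnl1 and Def6 are described here, chosen after their values were seen. Anxa1, which encodes the phospholipid-binding protein annexin A1, stood at 82.1, 93.3, 38.1 and 63.7 CPM in Vwf-positive cells, against 241, 241, 208 and 143 CPM in comparison cells (-1.60 ± 0.30, edgeR adjusted p = 0.0537). Smtnl1, which encodes a smoothelin-like protein of muscle, stood at 156, 132, 106 and 73.1 CPM in Vwf-positive cells, against 8.68, 13.7, 39.8 and 31.1 CPM in comparison cells (2.49 ± 0.53, edgeR adjusted p = 0.130). Def6, an exchange factor of small GTPases in lymphocytes, stood at 102, 91.4, 25.1 and 98.3 CPM in Vwf-positive cells, against 266, 208, 201 and 208 CPM in comparison cells (-1.59 ± 0.32, edgeR adjusted p = 0.101). All 3 passed with equal weight for each cell, with limma adjusted p of 0.00159, 0.00417 and 0.0309. They were chosen with these values known, so that pass is no separate support. Other genes near the threshold without overlap did not pass, among them Tnfrsf13c (limma adjusted p = 0.0835), Ramp1 (0.109) and Mcm6 (0.132). Among the other genes that fit called were Ramp2, Clu, Cdkn1a and Apoe, which were higher, and Cd27, Cmtm7 and Ctla2a, which were lower. It called neither Hba-a1 (limma adjusted p = 0.647) nor Rsad2 (0.25) nor Rgs1 (0.114).

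**Figure D3:**
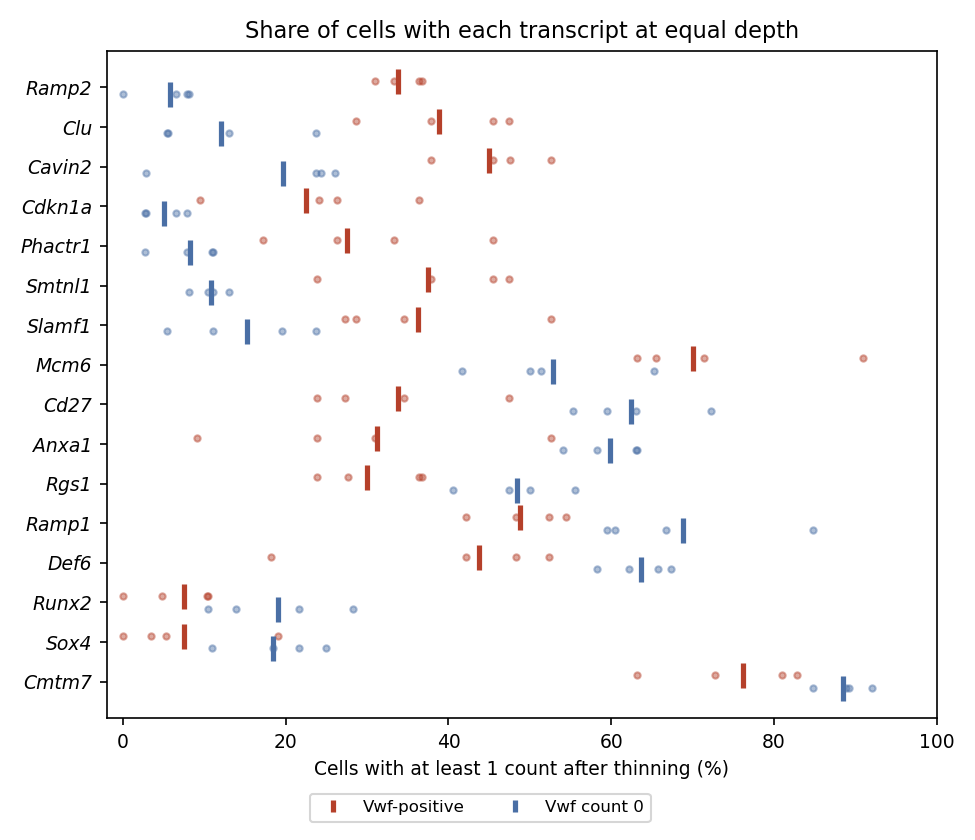
Share of cells with at least 1 count of each of 16 genes after thinning to 30000 counts, in 80 Vwf-positive and 157 Vwf count 0 cells (ticks: all libraries; points: each library). Ramp2 is found in 33.8% of Vwf-positive and 5.73% of Vwf count 0 cells, and Cd27 in 33.8% of Vwf-positive and 62.4% of Vwf count 0 cells.

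Most tested S phase genes had a positive log2 fold change, and none passed the test. Of 21 tested S phase genes, 0 were called, 19 were positive and 10 had an unadjusted p below 0.05 in that direction, with a median of 0.96. Over all genes, 4663 of 11155 were positive, 1.99% were higher at an unadjusted p below 0.05, and the median was -0.13. Mcm6, a subunit of the replicative helicase, stood at 210, 289, 389 and 216 CPM in Vwf-positive cells, against 129, 142, 191 and 106 CPM in comparison cells, without overlap (0.96 ± 0.22, edgeR adjusted p = 0.193). Pcna, the sliding clamp of DNA polymerases, stood at 179, 176, 494 and 159 CPM in Vwf-positive cells, against 103, 126, 146 and 151 CPM in comparison cells (0.78 ± 0.27, edgeR adjusted p = 1.0). Library 3 stood apart: the list summed to 1320, 1750, 4800 and 1440 CPM in Vwf-positive cells, against 1210, 1180, 1460 and 1050 CPM in comparison cells. Without library 3 the median was 0.60, with 18 of 21 positive and 3 at an unadjusted p below 0.05. Cells with at least 3 counts of Mki67, Birc5 or Ccnb2, which mark division, numbered 7 of 81 Vwf-positive and 7 of 169 comparison cells. In library 3 they numbered 3 of 12 Vwf-positive and 2 of 52 comparison cells. Without them the S phase median was 0.56, with 17 of 20 positive and 1 at an unadjusted p below 0.05. The median of the G2/M phase list was 0.69 over 19 tested genes with all cells, -0.22 over 18 without library 3 and -0.08 over 19 without library 4. The cycling cells were chosen by genes of that list, so its median without them (-0.63 over 11 tested genes) follows from the choice.

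Erythroid genes had the highest median of the lists, 1.70 over 15 tested genes, with 14 positive and Hba-a1 called. At an unadjusted p below 0.05, 7 were higher, against 1.99% of all genes. Of the 15, only 11 were still tested without the 2 Vwf-positive cells with Rhd described below. The others passed the count filter through those cells and are higher by that choice. The median and these counts therefore cannot weigh the list against all genes. The erythroid median was 0.37 over 14 genes without library 3, 1.03 over 14 without library 4 and -0.01 over 10 without the cycling cells. At least 3 counts of Rhd, a blood group antigen gene of this list, were held by 2 Vwf-positive and 0 comparison cells. Without them the median was 0.12 over 11 genes, a fall that follows from leaving out cells by a gene of the list on one side only. Of these cells, one in library 3 had 346876 counts, the most of any cell, with 5 Vwf, 182 Rhd, 119 Klf1 and 1177 Car1 counts, and 17240 CPM of the erythroid list. The other, in library 4, had 309996 counts, with 44 Vwf, 38 Rhd, 62 Klf1 and 297 Car1 counts, and 11730 CPM of the list. Klf1 encodes a transcription factor of red cell precursors and Car1 a carbonic anhydrase of red cells. The other 79 Vwf-positive cells had a median of 2612 CPM and at most 9976, and the comparison cells a median of 2720 CPM and at most 11810. The 2 cells with Rhd held 769 and 799 Hba-a1 counts, and without them Hba-a1 had a log2 fold change of 0.20 and was not called. Leaving them out also took Rsad2 to a log2 fold change of 1.69 (edgeR adjusted p = 0.388) and brought Clu past the threshold (3.47, edgeR adjusted p = 0.0484). Whether the cells were doublets was not tested.

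**Figure D4:**
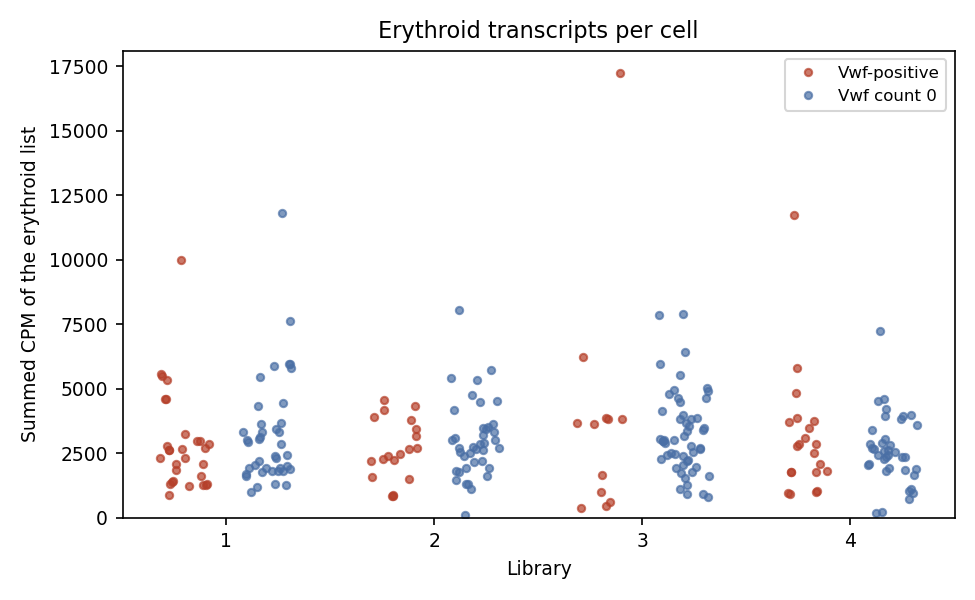
Summed CPM of the erythroid list in each Vwf-positive and Vwf count 0 cell of libraries 1 to 4 (each point is a cell). The Vwf-positive cells at 17240 CPM in library 3 and 11730 CPM in library 4 are the highest of their libraries, and the other cells of both sides overlap.

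Beyond Cd27, the other lists held no called gene. Of all genes, 1.99% were higher and 2.49% lower at an unadjusted p below 0.05. Myeloid genes had a median of -0.18 over 10 tested genes, with 5 positive, and 0 higher and 3 lower at an unadjusted p below 0.05. Lyz2, the lysozyme gene, stood at 804, 939, 635 and 627 CPM in Vwf-positive cells, against 919, 1070, 946 and 918 CPM in comparison cells (-0.37 ± 0.14, edgeR adjusted p = 1.0). Spi1, which encodes the myeloid factor PU.1, gave -0.69 ± 0.27 without overlap. Calr, the gene of the chaperone calreticulin, gave 0.35 ± 0.19, and Prtn3, the gene of a granule protease, 0.00 ± 0.22. Interferon response genes had a median of 0.13 over 20 tested genes, with 14 positive, and 1 higher and 1 lower at an unadjusted p below 0.05. Igtp, an interferon-inducible GTPase gene, was higher in 4 of 4 libraries (0.52 ± 0.24, edgeR adjusted p = 1.0) and Ifi27 lower in 4 of 4 (-0.94 ± 0.27, edgeR adjusted p = 0.606). Rsad2 was in none of the lists. Immediate early genes, which respond to stimulation and to dissociation, had a median of 0.12 over 20 tested genes, with 13 positive. At an unadjusted p below 0.05, 4 of them were higher and 0 lower, and without library 1, 2 were higher and 3 lower. Atf3, a stress-induced member, stood at 235, 78.3, 148 and 6.62 CPM in Vwf-positive cells, against 72.6, 3.69, 4.98 and 2.95 CPM in comparison cells (3.02 ± 0.61, edgeR adjusted p = 0.101). The JAK-STAT and thrombopoietin signalling list had a median of 0.15 over 17 tested genes, with 0 at an unadjusted p below 0.05. The medians were 0.11 for oxidative phosphorylation, 0.06 for glycolysis, -0.04 for antigen presentation, 0.25 for D cyclins, CDKs and inhibitors, -0.01 for CD27 and NF-kB signalling, -0.14 for TGF beta and BMP and -0.40 for adhesion and niche genes. At an unadjusted p below 0.05, 3 of 20 oxidative phosphorylation, 2 of 17 glycolysis, 2 of 14 D cyclin and 2 of 17 TGF beta genes were higher, with 0 lower. CD27 and NF-kB signalling had 2 of 15 higher and 1 lower. Adhesion and niche genes had 2 of 14 lower and antigen presentation 1 of 18, with 0 higher.

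**Figure D5:**
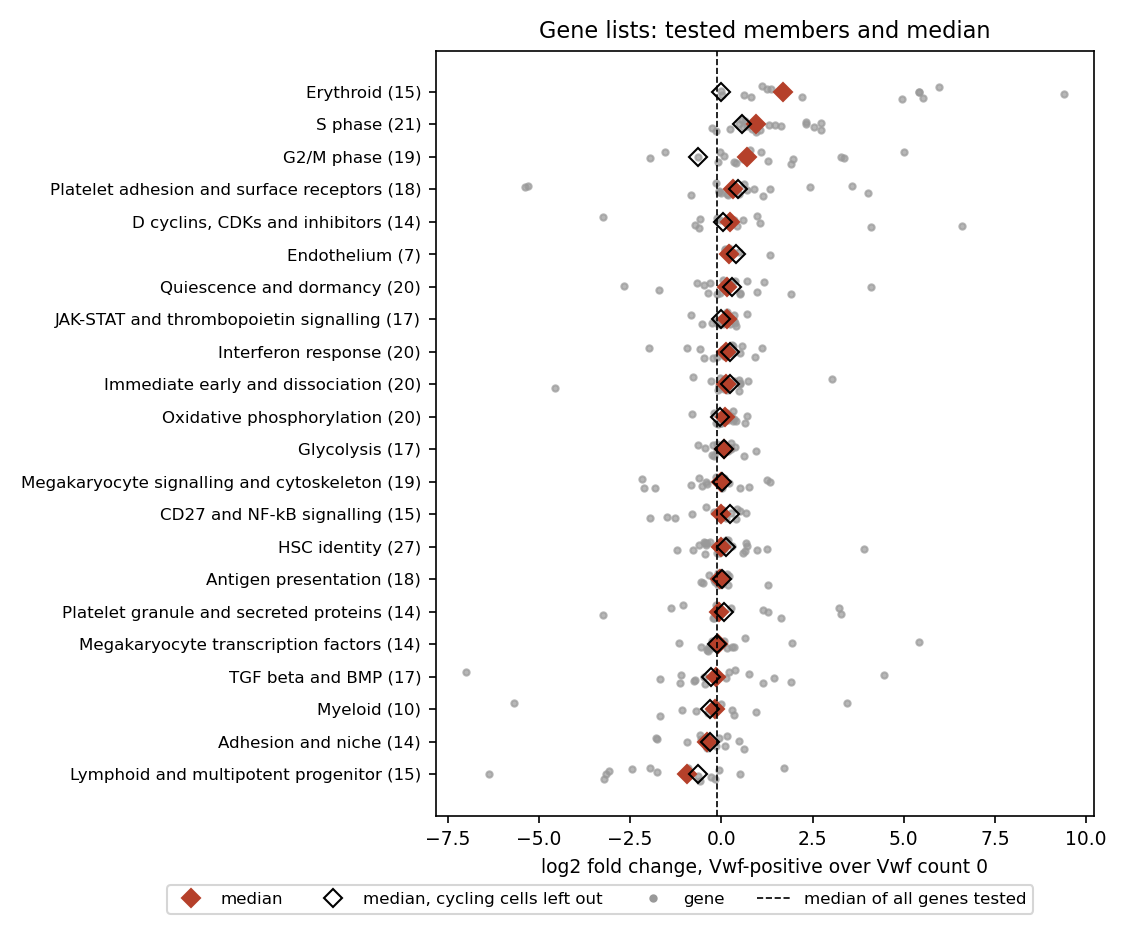
Log2 fold change (Vwf-positive over Vwf count 0) of each tested gene (grey) and the median (diamonds) of 22 lists, with the number tested in brackets, and the median with cycling cells left out (open diamonds). The erythroid median is 1.70 over 15 tested genes with all cells and -0.01 over 10 without the cycling cells. It is 0.12 over 11 without the 2 cells with Rhd (not drawn). The lymphoid and multipotent progenitor median is -0.93 with all cells and -0.63 without the cycling cells, against -0.13 over all genes (dashed).

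Vwf is also an endothelial gene, so markers of endothelium and of other cells were read in the same sums. Of the endothelial list 7 genes were tested, all with a positive log2 fold change and a median of 0.20, and 0 were called. The list summed to between 662 and 1020 CPM in Vwf-positive cells and between 612 and 833 CPM in comparison cells. Cdh5, which encodes VE-cadherin and defines endothelium, had a count in 1 of 81 Vwf-positive and 0 of 169 comparison cells, and the 0 allows up to 1.78% of comparison cells with a count. Kdr (0.49 ± 1.21), Pecam1 (0.20 ± 0.43), Tek (0.10 ± 0.49) and Cldn5 (1.32 ± 1.33) were not called. The stromal list summed to between 7.68 and 60.4 CPM in Vwf-positive and between 5.0 and 47.3 CPM in comparison cells, with Col1a1 and Cxcl12 at 0 in Vwf-positive cells. The B cell list summed to between 61.3 and 124 CPM in Vwf-positive and between 81.0 and 141 CPM in comparison cells. The T and NK cell list summed to between 66.8 and 113 CPM in Vwf-positive and between 34.6 and 133 CPM in comparison cells. Macrophage genes summed to between 11.1 and 25.8 CPM in Vwf-positive and between 14 and 34 CPM in comparison cells, and mast cell genes to 0 CPM in Vwf-positive and at most 0.526 CPM in comparison cells. Of these lists 4 stromal, 2 B cell, 3 T and NK cell and 2 macrophage genes were tested, and 0 were called.

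Cd27 (chr6:125232622-125237010, minus strand) lies 310 kb from Vwf, and the genes between and around them were examined. Within 500 kb of Vwf, 16 other genes were in the table and 14 were tested, with a median log2 fold change of 0.08, 7 positive and 6 negative. Cd27 was the called gene among them. Cd9, the nearest at 52 kb, gave 0.00 ± 0.19, and Tnfrsf1a and Ltbr, which encode receptors of the same family as CD27, gave -0.54 ± 0.30 and 0.36 ± 0.62.

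The number of genes detected at equal depth was compared as well. After thinning, a median Vwf-positive cell had 2680, 2663, 3122 and 2804 genes detected in libraries 1 to 4, against 2669.5, 2442.5, 2646.5 and 2610 in a median comparison cell. The difference averaged 225 ± 191 genes (SD, n = 4) and was positive in 4 of 4 libraries, though small in library 1. The two-sided exact sign-flip test gave p = 0.13 after rounding, which is the smallest that 4 libraries allow.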

How the data were processed

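The data are counts per gene and cell from STRT-seq, a single-cell method that tags the cDNA of each cell. The authors deposited raw counts, whole numbers with no normalization. Per the submitters' processing notes, the build was GRCm38 and the tools were HISAT2 2.1.0, Trimmomatic 0.36 and HTSeq 0.9.1. No source used here says whether reads were collapsed by molecular identifier, so counts may include PCR copies. The intervals given for shares of cells cover only the sampling of cells. The sorter was set to avoid doublets, per the labels' protocols, and no doublet caller was run.

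Cells with at least 10000 counts and 1000 genes were kept, 292 of 297, and 15 cells of the 2 runs were dropped. Cells with at least 3 Vwf counts and cells with 0 were summed per library, which gave 8 sums. These were tested with edgeR 4.0.16 (quasi-likelihood, TMM factors, filterByExpr, library as block), two-sided, with Benjamini-Hochberg adjustment over all genes tested and a threshold of 0.05. Each side of a library comes from the same pool, which is the pairing. The deviations of the paired sums correlated at -0.026, 0.034, 0.034 and 0.022. CPM is the gene's share of a sum, scaled to 1000000. Ranges and SDs are over the 4 libraries. The common biological coefficient of variation was 0.814. The fit was tested on simulated data for this comparison with 11156 genes, 50 changed at each size. It recovered 0%, 8%, 34% and 58% of genes at log2 changes of 0.5, 1, 2 and 3, and called 5 of 10956 unchanged genes. Differences up to a log2 change of 2 would thus mostly be missed, and many at a log2 change of 3 as well. Thinning used a fixed seed.

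The Vwf-positive cells and the gene lists were chosen with earlier results of these data known. Named genes are the given markers, the sorting antigens, called genes, up to 3 uncalled members of each list by level, and defining markers of other cell types. Genes at an unadjusted p below 0.05 and those just outside the threshold were chosen after their values were seen. A few genes that these rules name are not reported here. Alternatives were DESeq2 1.42.0, limma 3.58.1 (voom), relative log expression factors, no filter, no block, thinning to 30000 counts, other Vwf thresholds, the runs kept, cycling cells left out and each library left out. Equal weight for each cell (limma on the mean of log2 of thinned count plus 1, genes found in at least 10% of cells) and leaving out cells with at least 3 Rhd counts were added after seeing the data. Gene coordinates came from GENCODE M21, and the promoter windows from RefSeq's own gene starts.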

Additional observations from a re-analysis of the deposited data

Results flagged for a closer look

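In groups of 4 libraries, a value was listed where 1 library lay far from the other 3 relative to the range. Of 54 groups checked, 6 were listed, and chance alone lists about 1 in 20. Cldn13, a claudin, stood at 333 CPM in the Vwf-positive cells of library 3, against at most 26.7 CPM in the other libraries, and 77.2% of its counts on that side came from a single cell. Rhd stood at 169 CPM in the Vwf-positive cells of library 3 and came from 2 cells in all. Def6 stood at 25.1 CPM in the Vwf-positive cells of library 3, with the others between 91.4 and 102 CPM. In the comparison cells Def6 stood at 266 CPM in library 1, with the others between 201 and 208 CPM. Tnfrsf13c, the gene of the B cell survival receptor BAFF-R, stood at 25.2 CPM in the Vwf-positive cells of library 1, with the others at or below 0.384 CPM. Atf3 stood at 72.6 CPM in the comparison cells of library 1, with the others between 2.95 and 4.98 CPM.

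Of the 15 cells of the dropped runs, 3 had at least 3 Vwf counts, a share of 20.0% (95% exact binomial interval 4.33 to 48.1), so Vwf transcript was present outside the cells compared. The highest of them held 55 Vwf counts.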

How the results depend on the processing

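edgeR with TMM factors and the library as block called 3 higher and 3 lower genes. DESeq2 called 22 higher and 34 lower, no filter on low counts 12 and 11, limma-voom 9 and 5, and equal weight for each cell 6 and 5. Membership from thinned counts gave 1 higher and 1 lower, as did a threshold of 1 Vwf count, and a threshold of 10 gave 0 and 0, with 140 and 260 at an unadjusted p below 0.05. With a library left out, the counts ran from 0 to 10 higher and from 0 to 6 lower. Without library 3 they were 0 and 0, with 194 and 222 at an unadjusted p below 0.05. Without the library as replicate block, 0 were higher in edgeR, with 236 at an unadjusted p below 0.05, and 1, Cmtm7, was lower.

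RLE factors (4 and 3), thinning (3 and 3), the runs kept (4 and 4), cycling cells left out (2 and 3) and Rhd cells left out (3 and 3) gave counts within 1.5 times, though not always the same genes. Thinning shared 3 of the 6 called genes, and leaving out cycling cells or Rhd cells shared 4 each. Of 17 alternatives, 14 called Cmtm7, 11 Ramp2, 10 Cd27, 9 Rgs1, 7 Hba-a1, 6 Rsad2 and 5 Clu. The log2 fold change of Hba-a1 turned to -0.04 with cycling cells left out and fell to 0.20 with Rhd cells left out. Over the alternatives the adjusted p ran from 4.44e-05 to 0.356 for Cd27 and from 4.51e-07 to 0.506 for Ramp2. With RLE factors the medians of the HSC identity, megakaryocyte signalling and CD27 signalling lists turned from -0.01 to 0.02, 0.03 and 0.03. The difference in genes detected was 344 with counts as deposited, 264 at 50000 counts and from 142 to 297 with a library left out. The causes of these changes were not tested. The 12 Vwf-positive cells of library 3 limit what that library can show.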

Other observations

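The 27 cells with 1 or 2 Vwf counts belong to no side of the comparison. Clu had a count in 22.2% of them, Cavin2 in 29.6%, Ramp2 in 25.9% and Cd27 in 63.0%, in counts as deposited. On the same measure, the shares of Clu, Cavin2, Ramp2 and Cd27 were 40.7%, 51.9%, 39.5% and 44.4% in Vwf-positive cells. In comparison cells they were 17.8%, 22.5%, 11.8% and 65.1%. Summed over all libraries, these cells held 741 CPM of Rgs1, 800 CPM of Cmtm7 and 182 CPM of Cd27.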
